A study of Mus musculus with 4 samples.

Results

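Strong Prep-only sites are the high-scoring places in the genome where Prep was found by chromatin immunoprecipitation and sequencing (ChIP-seq) and where the Meis library gave no overlapping peak. They are the peaks of the Prep list with a score of at least 43.3, about the upper quartile, that share not even 1 bp with a Meis peak. The rule kept 788 of the 3331 Prep peaks, out of 9017 peaks in both lists. All libraries came from trunks of wild-type C57BL/6 embryos at embryonic day 11.5, taken apart to single cells before cross-linking. Antibodies against Prep1/2 were used for one library and antibodies against Meis1/2 for the other, and each has an input library made with no antibody. No group has more than 1 library, so no spread between embryos is known, and the labels do not say how many embryos went into a library. Peak lists were used here for the antibody libraries, and the inputs were not analysed here.

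Prep and Meis proteins belong to the TALE homeodomain family of transcription factors, named for the extra loop of amino acids in their DNA-binding domain. Both bind DNA together with Pbx proteins, and Meis proteins also join complexes with Hox proteins, the regulators that give the segments of the trunk their identity. Prep1 is known to be needed in the early embryo and is expressed broadly, and Meis proteins are known for roles in limb, heart and blood development. The Prep1/2 antibody does not tell Prep1 from Prep2 by its label, nor does the Meis1/2 antibody tell Meis1 from Meis2.

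These sites were chosen by their score and by the absence of Meis overlap, so both are a description. Of the 839 Prep peaks at or above the threshold, 788 had no Meis peak on them, which is 93.9%. Over the whole Prep list 87.8% of peaks had none, and under the threshold 85.7% (2135 of 2492). Scores of the strong Prep-only sites lay between 43.3 and 353 (median 100, quartiles 64.3 and 143). At the lower edge, 9 sites had exactly the lowest score, 43.3. Among them were peaks on chromosome 4 at 122675856 to 122676044, on chromosome 7 at 96552736 to 96552918, at 146574597 to 146574781 and at 148661279 to 148661467, and on chromosome 9 at 113839708 to 113839900. Just under the threshold stood 7 Prep-only peaks with a score of 42.7. They included chromosome 2 at 27395804 to 27396120, at 32143570 to 32143744 and at 150277218 to 150277393, and chromosome 4 at 91043203 to 91043395 and at 152260975 to 152261167. The score is the authors' own value on a scale that is not stated, and the order of peaks by score is all that is read from it.

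The 20 highest-scoring sites, with scores of 250 to 353, lay on 13 chromosomes. They were between 144 and 193 bp wide, with a median of 164 bp. Chromosome 17 carried 4 of them, chromosome 8 carried 3, and chromosomes 7 and 11 carried 2 each. The highest site of all scored 353 and was a peak of 150 bp on chromosome 3, from 89215800 to 89215949. Its nearest Prep neighbour was a peak with a score of 32.2 at 6.43 kb, and the nearest Meis peak was 91.1 kb away. Second came a peak of 193 bp on chromosome 7 at 52241861 to 52242053 (score 349), 11.4 kb from the next Prep peak and 108 kb from the nearest Meis peak. A peak on chromosome 17 at 85356898 to 85357087 (score 332) stood much further from other Prep binding, with the next Prep peak at 446 kb. The fourth site, on chromosome 11 at 55282949 to 55283118 (score 328), was one of a close pair: another strong site with a score of 133 lay 267.5 bp away.

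The other sites among these 20 showed the same range of surroundings. On chromosome 17 they lay at 15701302 to 15701467 (score 307), at 25097650 to 25097810 (score 286) and at 26056822 to 26056994 (score 284). Chromosome 8 held peaks at 116159184 to 116159367 (score 290), at 72520215 to 72520384 (score 282) and at 93658023 to 93658183 (score 257). The first of these 3 was the most isolated of the 20, with 1695 kb to the next Prep peak. Chromosome 18 followed with a peak at 36719935 to 36720098 (score 301), and chromosome 15 with one at 76181577 to 76181733 (score 299). The second peaks of chromosomes 7 and 11 lay at 26053177 to 26053358 (score 290) and at 68505337 to 68505484 (score 286). A peak on chromosome 10 at 128133468 to 128133641 (score 286) had its nearest Meis peak at 1034 kb. The remaining 5 were on chromosome 2 at 11699179 to 11699330 (score 264), chromosome 14 at 55512744 to 55512887 (score 263), chromosome 12 at 85262945 to 85263107 (score 257), chromosome 19 at 46469645 to 46469805 (score 252) and chromosome 9 at 21229187 to 21229350 (score 250). Of the 20 sites, 6 had another Prep peak within 10 kb and 2 had one within 1 kb. A Meis peak lay within 10 kb of 1 of them and within 100 kb of 9.

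Strong Prep-only sites were narrow and much alike in width. The median was 172 bp (95% interval 171 to 173 bp from the order of the widths, which covers the number of peaks only), with quartiles of 163 and 182 bp. From the lowest to the highest they spanned 73 to 258 bp, and 737 of the 788 (93.5%) were under 200 bp. Lower-score Prep-only peaks had a median of 266 bp (263 to 268 bp), quartiles of 229 and 296 bp, and 201 of 2135 (9.41%) under 200 bp. The medians differed by -94 bp, strong minus lower. None of the strong sites reached the median width of the lower-score peaks, that is, 0 of 788, and 29 of the 2135 lower-score peaks (1.36%) were as narrow as the median strong site. Width and score come from the same peak calls, so this is a description and was not tested.

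Width followed the score along the whole list and levelled off among the strong sites. In lower-score Prep-only peaks with scores under 7, the median width was 296 bp (851 peaks). It was 267 bp for scores from 7 to 10 (493 peaks), 234 bp from 10 to 20 (455 peaks) and 200.5 bp from 20 to the threshold (336 peaks). Strong sites under a score of 60 then had a median of 184 bp (162 sites), and those from 60 to 100 had 175 bp (230 sites). From 100 to 150 the median was 167 bp (224 sites), from 150 to 200 it was 164 bp (109 sites), and from 200 upwards it was again 164 bp (63 sites). Across the 788 sites Spearman's rho of width with score was -0.45, given as a description across peaks of one library. Strong Prep peaks that did overlap a Meis peak had nearly the same width, a median of 170 bp (166 to 183 bp, 51 peaks). The difference from the strong Prep-only sites was 2 bp, and their median of 172 bp lay within that interval.

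**Figure D1:**
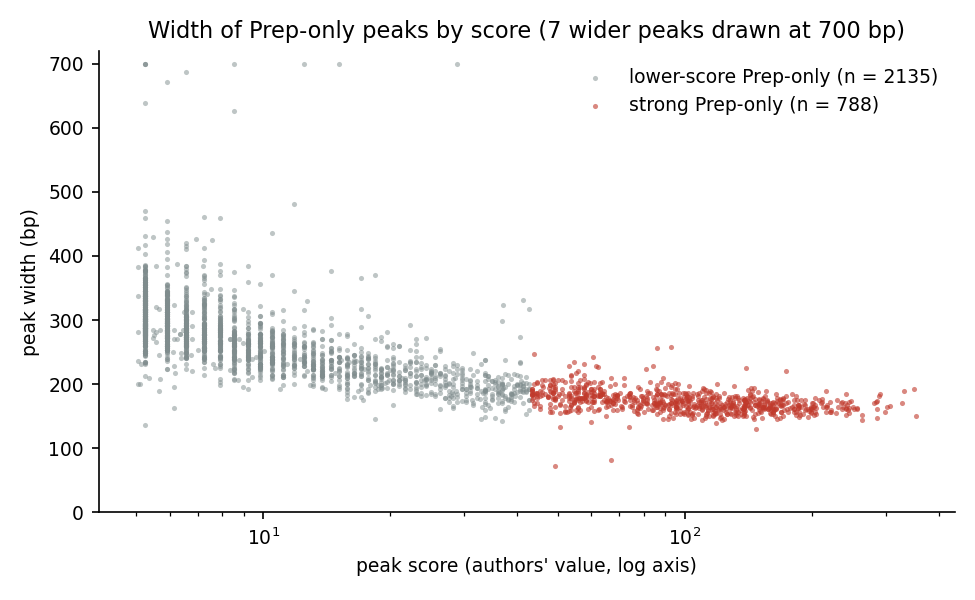
Width of each Prep-only peak in bp against its score on a log axis, for 788 strong sites (red) and 2135 lower-score peaks (grey), with 7 wider peaks drawn at 700 bp. The cloud narrows and falls from a median of 296 bp under a score of 7 to 164 bp above 200.

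Only a few strong sites left this narrow band. The narrowest were a peak of 73 bp on chromosome 1 at 96366515 to 96366587 (score 49.2) and one of 81 bp on chromosome 14 at 57505284 to 57505364 (score 67.0). The next, on chromosome 10 at 81111650 to 81111779 (score 148), was already 130 bp wide. It was followed by 2 peaks of 133 bp, one on chromosome 4 at 106583964 to 106584096 (score 73.5), the other on chromosome 8 at 125372140 to 125372272 (score 50.6). At the other end stood a peak of 258 bp on chromosome 6 at 113026734 to 113026991 (score 92.6) and one of 256 bp on chromosome 7 at 75274013 to 75274268 (score 86.0). Both of these widest peaks overlapped another strong site whose centre was 44 and 72.5 bp away. The next 3 were 247 bp on chromosome 14 at 15180036 to 15180282 (score 44.0), 242 bp on chromosome 2 at 26300807 to 26301048 (score 60.4) and 234 bp on chromosome 12 at 3235855 to 3236088 (score 54.5).

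Strong Prep-only sites were found on 20 chromosomes, on the autosomes and on X. The number per 10 Mb, counted over the stretch of each chromosome that the peaks of either list span, was highest on chromosome 11 with 6.40 (76 sites) and on chromosome 17 with 6.29 (58 sites). Chromosome 7 had 4.90 (73 sites) and chromosome 19 had 4.66 (27 sites). It was lowest on the X chromosome with 0.863 (14 sites), then on chromosome 13 with 1.54 (18 sites) and chromosome 1 with 1.83 (35 sites). Over these 20 chromosomes the median was 3.05. Among them, lower-score Prep-only peaks were likewise densest on chromosome 11 (13.6 per 10 Mb) and sparsest on X (3.58). They reached 11.3 on chromosome 17, 11.4 on chromosome 7, 9.49 on chromosome 19, 8.14 on chromosome 13 and 5.84 on chromosome 1. The Y chromosome carried 6 lower-score Prep-only peaks and 0 of the 788 strong sites, which allows a share of up to 0.381%.

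The share of strong sites on each chromosome was set against that of the lower-score Prep-only peaks. The X chromosome held 1.78% of the strong sites (95% Wilson interval 1.06 to 2.96%) and 2.72% of the lower-score peaks (2.11 to 3.50%). The difference was -0.94 points, with a 95% Newcombe interval of -2.00 to 0.391. Intervals of the difference left out 0 on 3 of the 21 chromosomes compared. On chromosome 12 the shares were 5.58% (44 sites) and 3.42%, a difference of 2.16 points (0.524 to 4.12). On chromosome 17 they were 7.36% and 4.87%, a difference of 2.49 points (0.584 to 4.69). Chromosome 13 went the other way, with 2.28% against 4.45%, a difference of -2.17 points (-3.44 to -0.643). With intervals widened to a level of 99.8% to allow for 21 comparisons, 0 of them left out 0. The intervals cover the counting of peaks only, and neighbouring peaks are not independent.

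**Figure D2:**
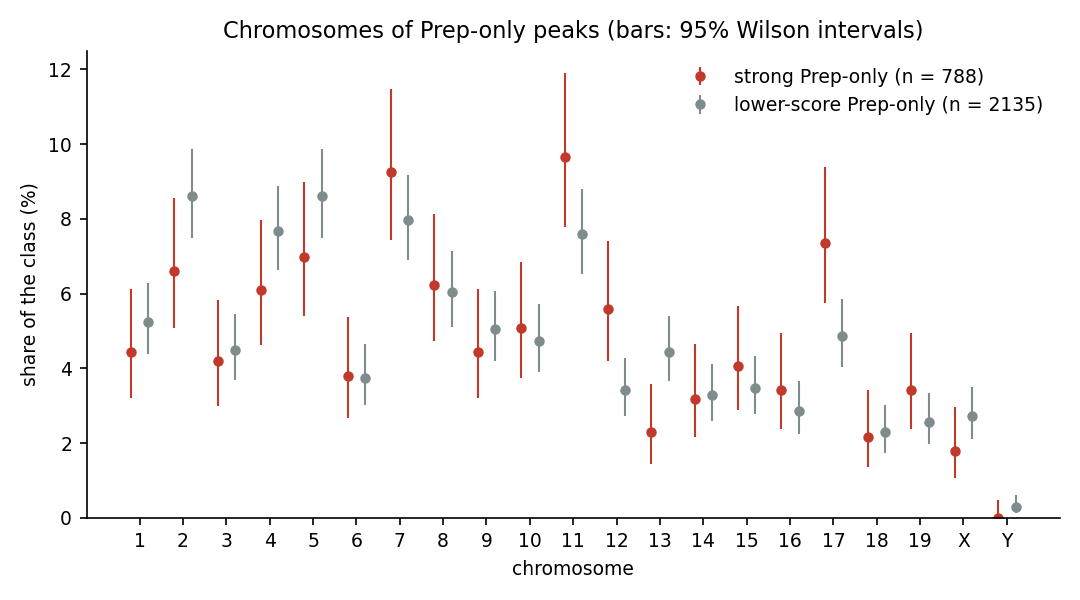
Share of strong (red, n = 788) and lower-score (grey, n = 2135) Prep-only peaks on each chromosome in %, with 95% Wilson intervals. The intervals overlap on every chromosome shown except chromosome 13 (2.28 against 4.45%).

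The strongest site of a chromosome differed widely in score. On the 7 chromosomes that are not among the 20 sites above, it was 242 on chromosome 6 at 54543213 to 54543364 and 221 on chromosome 1 at 93355921 to 93356092 and on chromosome 4 at 128670387 to 128670543. Chromosome 5 had 212 at 138069884 to 138070060, and chromosome 16 had 169 at 42875817 to 42875972. Chromosome 13, poor in strong sites, reached 168 at 59871158 to 59871324. The X chromosome reached 132 at 106208760 to 106208914, the lowest of the 20. That X site had its nearest Prep neighbour at 1801 kb and its nearest Meis peak at 4209 kb.

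Most strong sites had no other Prep peak within 10 kb, and a minority had a very close Prep neighbour. The median distance between centres to the nearest other Prep peak of any score was 70.6 kb (quartiles 22.0 and 243 kb), against 88.7 kb (24.8 and 296 kb) for lower-score Prep-only peaks. A Prep peak lay within 1 kb of 111 strong sites, 14.1% (11.8 to 16.7%), and of 181 lower-score peaks, 8.48% (7.37 to 9.74%). The difference was 5.61 points (3.03 to 8.44). This interval treats peaks as independent, although both peaks of a close pair add to the count. Within 10 kb the counts were 150 (19.0%, 16.4 to 21.9%) and 353 (16.5%, 15.0 to 18.2%), a difference of 2.50 points (-0.560 to 5.76). Within 100 kb they were 449 (57.0%, 53.5 to 60.4%) and 1115 (52.2%, 50.1 to 54.3%), a difference of 4.75 points (0.682 to 8.77). These intervals too treat peaks as independent. Of the strong sites, 638 had no Prep peak within 10 kb. The most isolated was a site on chromosome 14 at 87541053 to 87541227 (score 168; chosen after its values were seen), with 7611 kb to the next Prep peak.

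Close neighbours were about as frequent in each part of the strong range. Among the 197 lowest-scoring strong sites, 22 had a Prep peak within 1 kb (11.2%, 7.49 to 16.3%). The following sets of 197 sites in order of score had 30, 30 and 29, up to 15.2% (10.9 to 20.9%). Among lower-score Prep-only peaks the share was 12.8% (9.64 to 16.8%, 43 of 336) for scores from 20 to the threshold and 5.64% (4.28 to 7.40%, 48 of 851) for scores under 7. In between it was 10.1% (7.78 to 13.1%) for scores from 7 to 10 and 8.79% (6.52 to 11.8%) for scores from 10 to 20.

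**Figure D3:**
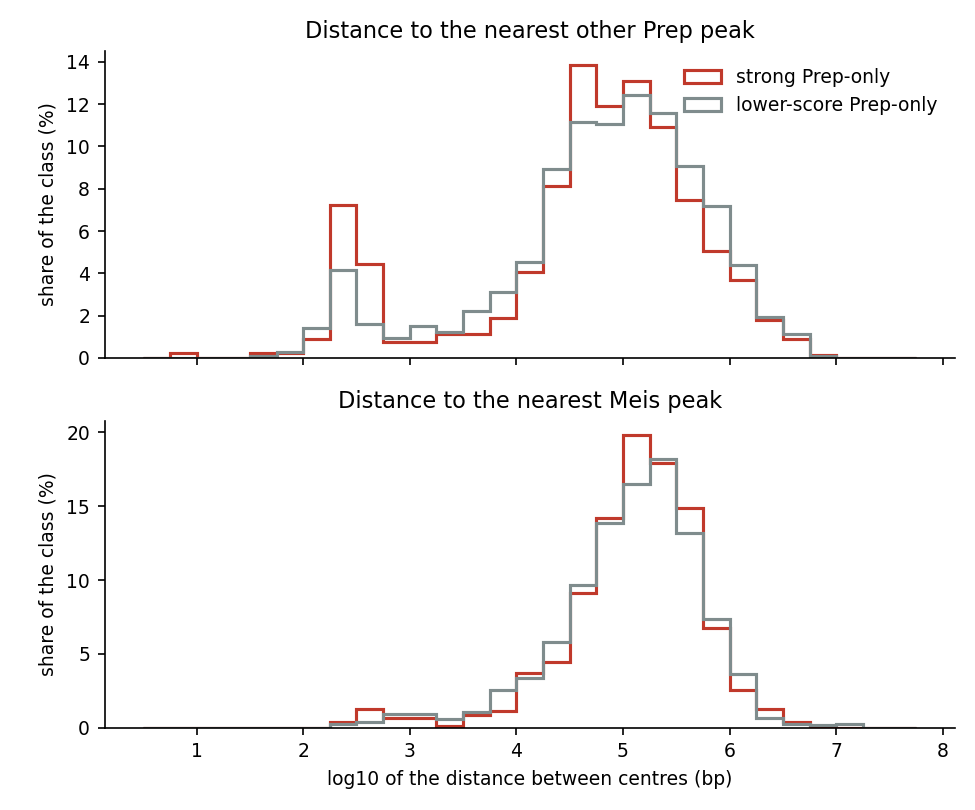
Distance between centres, as log10 of bp, from strong (red) and lower-score (grey) Prep-only peaks to the nearest other Prep peak (top) and to the nearest Meis peak (bottom), in % of the class. The top panel has a separate group of neighbours under 1 kb, with 14.1% of strong and 8.48% of lower-score peaks. In the bottom panel the rule had already removed every Prep peak that overlaps a Meis peak, so its short distances cannot be set against those of the top panel.

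The close neighbour of a strong site was usually another strong Prep-only site. Of the 111 sites with a Prep peak within 1 kb, 87 (78.4%) had a strong Prep-only site as the nearest one, a class that makes up 23.7% of the Prep list. A lower-score Prep-only peak was nearest for 18 sites (16.2%), a class with 64.1% of the list. Strong and lower-score peaks that overlap a Meis peak were nearest for 3 sites each. Lower-score peaks with a close neighbour likewise met their own class most often, 154 of 181 (85.1%), beside the 64.1% of the list. Score and Meis overlap, which chose the strong sites, also set the class of the neighbour. A pair of strong sites counts once from each end, so the 87 sites came from 44 pairs. These shares are a description and were not tested.

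Neighbouring strong sites within 10 kb mostly lay very close together. In 44 pairs the centres were 6 to 555.5 bp apart, with a median of 246 bp and quartiles of 200 and 330 bp. Only 5 further pairs lay within 10 kb, at 1.61 to 9.69 kb. Pairs within 1 kb thus made up 89.8% of the 49 pairs. Among lower-score Prep-only peaks they made up 52.3%, 79 of 151 pairs, with a median of 243 bp (quartiles 193 and 323.5 bp). The classes differ in size (788 and 2135), which by itself changes how often members of a class lie near each other. Meis peaks within 1 kb of each other, 73 pairs, lay a median of 574.5 bp apart (381.5 and 716.5 bp). The Meis value uses the whole Meis list with no score cut, and Meis widths were not described here. The 2 lists are therefore not directly comparable in this distance. In all 87 strong sites (11.0%) belonged to a pair within 1 kb, on 17 chromosomes, with 7 pairs on chromosome 7 and 5 on chromosome 11. Counting such neighbours once leaves 744 separate places.

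**Figure D4:**
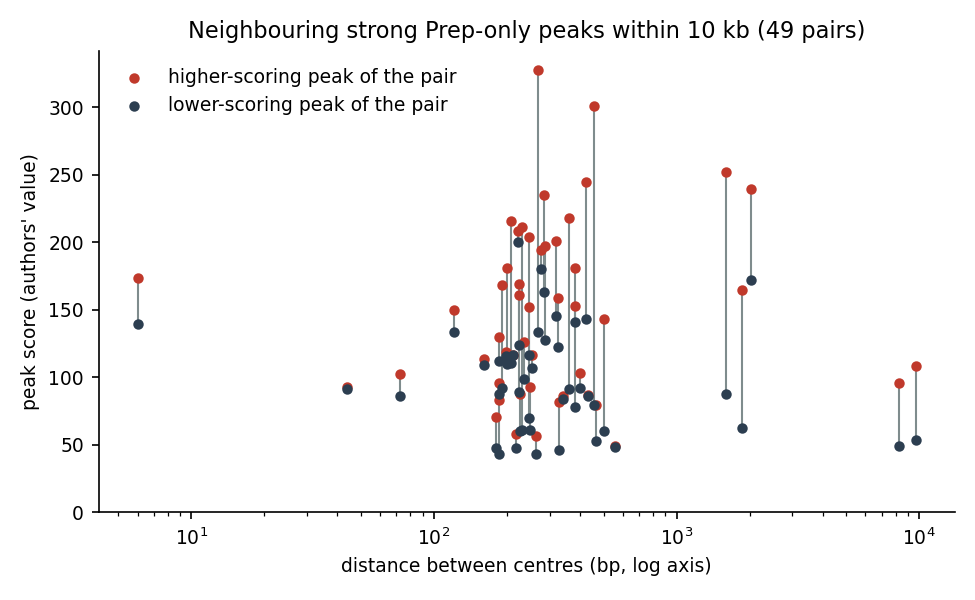
Scores of both peaks in each of 49 pairs of neighbouring strong Prep-only sites (higher in red, lower in dark blue, joined by a line) against the distance between their centres in bp on a log axis. There are 44 pairs at 555.5 bp or less and 5 from 1.61 to 9.69 kb.

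The closest pairs were peaks that overlapped each other, which was so in 6 of the 44. On chromosome 4 the peaks at 135050398 to 135050623 (score 140) and at 135050407 to 135050626 (score 173) shared 217 bp, and their centres were 6 bp apart. On chromosome 6 a peak at 113026719 to 113026918 (score 91.3) shared 185 bp with the widest strong site, and on chromosome 7 one at 75273970 to 75274166 (score 102) shared 154 bp with the second widest. A pair on chromosome 5 at 116009258 to 116009425 (score 150) and 116009374 to 116009552 (score 134) shared 52 bp. Whether such peaks are separate binding sites or 1 place called more than once was not tested.

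The next closest pairs overlapped little or not at all. On chromosome 7 the peaks at 29221339 to 29221497 (score 114) and 29221492 to 29221667 (score 109) overlapped by 6 bp. On chromosome 8 the peak at 86628680 to 86628843 (score 70.9) ended 1 bp before that at 86628845 to 86629038 (score 47.7). The pair on chromosome 4 at 3865702 to 3865852 (score 112) and 3865877 to 3866047 (score 130) left a gap of 24 bp. Chromosome 17 had a pair at 86550253 to 86550456 (score 88.0) and 86550444 to 86550635 (score 95.9), overlapping by 13 bp, and another at 17431100 to 17431259 (score 83.4) and 17431274 to 17431456 (score 43.3). The tenth pair by distance lay on chromosome 16, where peaks at 42875611 to 42875797 (score 91.9) and 42875817 to 42875972 (score 169) were 190.5 bp apart. Over the 44 pairs, the peak at the larger coordinate had the higher score in 25 and the other peak in 19.

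Strong sites formed 1 group of at least 3 with gaps of up to 10 kb. It is the place on chromosome 16 just named, where a further peak at 42875225 to 42875380 (score 103) lay 401.5 bp before the pair, so that 3 strong sites fell within 0.748 kb. No lower-score Prep-only peak and no Meis peak was listed inside it. For Meis this is largely set by the rule, which leaves only the gaps of 230 and 19 bp between the sites. With gaps of up to 100 kb, a limit chosen after the values were seen, there were 6 groups of 4 sites. Chromosome 17 held 3 of them, at 57074869 to 57171578 (top score 245), at 33855556 to 33980403 (top score 244) and at 17371523 to 17431456 (top score 119). The others lay on chromosome 8 at 86496724 to 86629038 (top score 236), on chromosome 7 at 4691313 to 4817973 (top score 235) and on chromosome 12 at 77356133 to 77505351 (top score 169). Both peaks of a pair within 1 kb count as sites in these groups. The group on chromosome 17 at 17371523 to 17431456 was made up of 2 such pairs, with centres 197.5 and 185.5 bp apart. The groups on chromosomes 7, 8 and 12, and that on chromosome 17 at 57074869 to 57171578, each held 1 such pair. The group on chromosome 7 contained 2 Meis peaks, that on chromosome 12 contained 1, and the other 4 groups contained 0. On a coarser scale the 788 sites fell into 509 windows of 1 Mb, of which 341 held 1 site and 14 held at least 5, with 7 at most. Lower-score Prep-only peaks were present in the windows of 75% of the strong sites. Windows with such a peak numbered 1045 in all, and the 20 chromosomes with strong sites spanned 2553 Mb. Whether 75% exceeds what the density of peaks along the chromosomes gives was not tested.

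Few strong Prep-only sites had a listed Meis peak close by. The rule had already removed the 51 strong Prep peaks that overlap a Meis peak. That the shortest distances are rare or missing is therefore in part set by the rule, which does not bar nearness without overlap. The median distance to the nearest Meis peak was 146 kb for strong sites (quartiles 63.2 and 323 kb) and 146 kb for lower-score Prep-only peaks (54.8 and 325 kb). Within 10 kb there was a Meis peak for 40 strong sites, 5.08% (3.75 to 6.84%), and for 144 lower-score peaks, 6.74% (5.76 to 7.89%). The difference was -1.67 points (-3.42 to 0.352). Within 100 kb the shares were 36.5% (288 sites) and 39.4% (842 peaks), a difference of -2.89 points (-6.79 to 1.10). Within 1 kb they were 2.28% (18 sites) and 1.55% (33 peaks), a difference of 0.739 points (-0.299 to 2.11). All of these intervals include 0. Meis signal below the lowest listed score of 8.51 does not appear in the list, so these sites lack a listed Meis peak, which need not mean that they lack Meis.

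The 18 strong sites with a Meis peak within 1 kb had a median score of 92.4, from 44.0 to 284, and the nearby Meis peaks had a median of 11.5, from 8.59 to 29.2 on the Meis scale. The nearest was a site on chromosome 5 at 135662961 to 135663136 (score 128), whose centre was 185 bp from that of a Meis peak with a score of 9.89. On chromosome 3, a site at 87981948 to 87982114 (score 147) had a Meis peak with a score of 12.4 at 239 bp. The site on chromosome 17 at 26056822 to 26056994, the 13th of the strong sites with a score of 284, had one with a score of 13.7 at 298 bp. A site on chromosome 19 at 45005481 to 45005646 (score 169) followed at 353.5 bp and one on chromosome 17 at 3557427 to 3557598 (score 97.4) at 362.5 bp, beside Meis peaks with scores of 8.96 and 8.73. The 3 sites farthest from any Meis peak, named after their values were seen, were all on the X chromosome. They lay at 45561872 to 45562052 (score 80.8), at 103382229 to 103382395 (score 67.0) and at 106208760 to 106208914, with 4393, 4303 and 4209 kb to the nearest Meis peak.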

How the data were processed

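The submitters' processing notes name BWA as the aligner and mm9 as the build. Each peak carries a score, the authors' own deposited value; the caller behind it and its settings are not given in the sources at hand, and the tag "pics" stands in the peak names, per the file columns. Each of the 2 antibody libraries has its own list. Read totals are unknown, so no depth stands behind a peak. Starts were raised by 1 to count from 1, on the assumption of BED coordinates; no Prep peak touched a Meis peak end to start, so this does not change the overlap.

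Distances are between peak centres. Shares carry 95% Wilson intervals and differences of shares 95% Newcombe intervals (Python 3.11.15, numpy 2.4.6, pandas 2.3.3, scipy 1.17.1, statsmodels 0.14.6). Both treat peaks as independent, which neighbouring peaks are not. With 1 library a group no test across libraries was made. Asking whether an interval of a difference leaves out 0 takes the peaks of 1 library as units, not embryos. The limit beside a count of 0 is 3 counts. The members, comparisons and alternatives were chosen with earlier results of these data known. Peaks were named by rule: the 20 highest, 5 on either side of the threshold, the 5 narrowest and widest, the 10 closest pairs, groups of at least 3, the 5 nearest to Meis and the highest of each chromosome. Other named peaks are marked. Gene positions were at hand for GRCm38.p6 alone, which is not the build of the peaks, so no gene, promoter, motif or sequence was assigned. The overlap call, the search for neighbours within 1 kb and the interval of the median were tried on simulated data. The other procedures were not.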

Additional observations from a re-analysis of the deposited data

How the results depend on the processing

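Of 51 recomputed values, 40 stayed within 1.5 times the count, or within the 95% interval of the value. The width difference kept its sign under each alternative. The other values are counts, widths and shares, which cannot be negative, so a change of direction was not possible for them. Taking the highest-scoring 10% of the Prep list left 325 sites, a median width of 165 bp, a width difference of -86 bp, an X chromosome share of 0.923% and 16 pairs within 10 kb. Taking the highest-scoring 50% gave 1578 sites, a median width of 190 bp and 108 pairs. The counts of sites and pairs change with the number of peaks taken in; the cause of the other changes was not tested. Set against the lower-scoring 50% of the list alone, the width difference was -114 bp. Leaving out Prep peaks with a Meis centre within 1 kb lowered the share with a Meis peak within 10 kb to 2.86%, as its construction implies. With neighbours within 1 kb merged, 5 pairs within 10 kb remained. This too follows from the construction, because 44 of the 49 pairs lay within 1 kb. Chromosomes whose interval left out 0 numbered between 2 and 4 under the alternatives.

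No paired analysis was possible because each group has 1 library. The annotation of genes, promoters and motifs was not run, since no mm9 genome was used here. Peaks below the lowest listed score are not in the lists, and without replicates no interval here covers the spread between embryos.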
